A study of Mus musculus with 8 samples.

Results

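The calcium-binding families described here are the S100 proteins, the annexins and the calmodulins. Their genes were taken from the count table by symbol: symbols that begin with S100a, S100b, S100g or S100z, annexin symbols (Anxa followed by digits), calmodulin symbols (Calm followed by a digit), Calml3 and Calml4. This gave 37 of the 55536 genes in the table, 18 S100 genes (S100a11-ps, a processed pseudogene, among them), 12 annexin genes and 7 calmodulin genes. The study forced expression of the transcription factor Klf4 in MIN6, an insulinoma-derived mouse β-cell line, labelled WT, to ask how this changes the β-cell transcriptome. The empty vector pcDNA 3 was transfected into control cells, and the plasmid pGloMyc-Klf4 into the Klf4 group, in both cases over 48 h with Lipofectamine 3000. The text on RNA extraction speaks of islets, but every library is labelled as the cell line. Each group had 4 libraries of polyadenylated RNA, replicates 1 and 2 from batch 1 and replicates 3 and 4 from batch 2. All cultures were thus lipofected, the plasmids differ in backbone by name as well as in Klf4, and the share of cells that took up a plasmid is not given in the sources used here, so that more cells with a transcript and more transcript per cell cannot be told apart in these bulk libraries.

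Most S100 proteins, calmodulins and annexins bind calcium. S100 proteins and calmodulins carry EF-hands, helix-loop-helix motifs that change shape when calcium binds: calmodulin then docks onto kinases, phosphatases and channels, while S100 proteins, mostly dimers, bind targets that include annexins. Annexins bind acidic phospholipids through calcium and act in membrane organisation, exocytosis and repair. In β-cells calcium entry triggers insulin release, and calmodulin is the ubiquitous sensor of that signal. In stratified epithelia, by contrast, many S100 genes and the calmodulin-like genes Calm4, Calm5 and Calml3 are known for expression during terminal differentiation.

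Of the 37 genes, 19 were higher in Klf4-transfected cells, 7 were tested without passing the threshold, and 11 had too few counts to be tested. The threshold was an adjusted p under 0.05 in edgeR's quasi-likelihood test with a term for batch, Benjamini-Hochberg adjusted over all genes tested. No member was lower, either after adjustment or at an unadjusted p under 0.05, in edgeR. DESeq2 and limma-voom called 18 and 19 members higher and 0 lower. Among all genes tested, 36.6% changed, 21.1% higher and 15.5% lower. With scaling factors from abundant genes the higher share of all calls was 72.8% in place of 57.7%, and 20 members were higher and 0 lower. The median log2 fold change of the 26 tested members was 0.51, and that of all tested genes was -0.01. A count over tested members needs care: 8 of the 26 passed the filter on low counts only through their Klf4-transfected libraries, and such genes had to differ between the groups. Of the 18 members that passed in all 4 control libraries, 11 were higher and 7 did not pass the threshold, where 18.1% of all genes of that kind were higher. The median log2 fold change of these 18 was 0.24 against -0.03 for all such genes. The members were chosen with earlier results of these data known, so these comparisons are no independent test.

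Counts per library ranged from 45417853 to 52731176. Klf4 itself had 1743 to 2060 counts in control libraries and 205171 to 308667 in Klf4-transfected ones. Levels are given as CPM, counts per 1000000 library counts after scaling with TMM factors. The 8 β-cell markers examined summed to 24700 to 31400 CPM in control and 23200 to 31700 CPM with Klf4, and 4 of them were lower by the test. The 5 α-cell markers summed to 589 to 710 and 603 to 705 CPM (2 of 4 tested higher), and the 3 δ-cell markers to 1.47 to 2.12 and 1.83 to 2.39 CPM (0 of 1 tested higher). A list of 5 fibroblast markers summed to 2.61 to 3.82 CPM in control and 21 to 27.4 CPM with Klf4 (3 of 4 tested higher, Lum at 0 counts, with Dcn alone at 0.0461 and 17.6 CPM on average), and a list of 6 keratinocyte markers to 3.82 to 4.24 and 21.6 to 33.2 CPM (1 of 2 tested higher, Trp63 and Ivl at 0 counts). The rise of the keratinocyte sum was that of Krt14, from 0.00518 to 23.1 CPM on average, while Krt10 was at 3.86 and 4.22 CPM, Krt5 at 0.098 and 0.225 CPM and Krt1 at 0 and 0.0286 CPM. For 5 duct markers the sums were 54.1 to 84.5 and 69.6 to 107 CPM (2 of 3 tested higher), most of it Krt7 at 68.4 and 85.9 CPM on average, and for 5 endothelial markers 4.1 to 4.48 and 5.01 to 5.28 CPM (1 of 3 higher). The 5 macrophage markers summed to 5.8 to 7.6 CPM and the 5 neutrophil markers were at most 0.628 CPM in any library, with Ly6g and Retnlg at 0 counts. The part of such cells in the changes below was not tested.

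Of the 11 members that rose by at least 1 on the log2 scale, 8 had RefSeq upstream windows in the sources used here. Sequences are shown for 6 of these 8. For S100a14, Anxa3 and Calml3 no window was found in these sources. Windows of S100a3 and Anxa7, which have several starts each, and of the other start of S100a16 are not printed. Of all 13 windows of these 8 members, 9 held the motif described next. CACCC and its reverse complement GGGTG are marked because they form the core of the CACCC box, the element that Kruppel-like factors bind. Each line gives the 250 bases before the RefSeq start (GRCm38.p6), 5′ to 3′ on the gene's strand, with CACCC or GGGTG in capitals.
Anxa8, chr14:34085729-34085978, plus strand: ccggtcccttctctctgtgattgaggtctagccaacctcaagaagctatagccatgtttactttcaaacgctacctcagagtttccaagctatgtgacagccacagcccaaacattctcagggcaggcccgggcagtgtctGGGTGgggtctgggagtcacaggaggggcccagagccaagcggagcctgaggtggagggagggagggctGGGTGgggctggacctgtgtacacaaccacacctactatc
Calm4, chr13:3837507-3837756, plus strand: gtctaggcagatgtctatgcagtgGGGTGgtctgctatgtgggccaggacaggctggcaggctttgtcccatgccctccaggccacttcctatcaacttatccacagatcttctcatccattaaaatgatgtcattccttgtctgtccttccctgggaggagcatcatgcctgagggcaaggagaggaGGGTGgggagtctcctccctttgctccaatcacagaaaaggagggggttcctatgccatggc
Calm5, chr13:3853923-3854172, plus strand: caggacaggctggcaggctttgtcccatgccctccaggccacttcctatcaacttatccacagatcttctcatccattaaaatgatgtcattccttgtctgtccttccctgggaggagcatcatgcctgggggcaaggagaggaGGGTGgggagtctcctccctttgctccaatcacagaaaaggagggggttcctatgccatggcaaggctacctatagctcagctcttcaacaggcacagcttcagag
S100a16, chr3:90537004-90537253, plus strand: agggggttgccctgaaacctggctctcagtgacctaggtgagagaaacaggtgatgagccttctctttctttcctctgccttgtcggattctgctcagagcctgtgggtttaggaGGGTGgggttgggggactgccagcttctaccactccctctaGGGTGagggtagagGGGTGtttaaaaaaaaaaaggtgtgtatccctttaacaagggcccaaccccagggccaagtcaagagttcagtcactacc
S100a6, chr3:90612644-90612893, plus strand: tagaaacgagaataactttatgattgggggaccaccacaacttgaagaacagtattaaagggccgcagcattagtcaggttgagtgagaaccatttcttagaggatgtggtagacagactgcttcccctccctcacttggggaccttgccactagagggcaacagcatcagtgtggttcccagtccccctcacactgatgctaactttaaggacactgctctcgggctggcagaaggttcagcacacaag
S100a13, chr3:90514185-90514434, plus strand: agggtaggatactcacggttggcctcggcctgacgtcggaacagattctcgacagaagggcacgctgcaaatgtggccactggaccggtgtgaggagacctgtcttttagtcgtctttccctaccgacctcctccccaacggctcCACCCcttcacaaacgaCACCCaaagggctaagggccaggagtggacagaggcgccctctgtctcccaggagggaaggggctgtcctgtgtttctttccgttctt

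The windows of Calm4 and Calm5 are near copies. Shifted by 44 bases they matched at 205 of 206 positions (99.5%), so that the GGGTG of Calm5 and the GGGTG of Calm4 nearer its start are the same site in the duplicated sequence. Among 551 pairs of windows from different members, compared without gaps over at least 150 bases, the next pair reached 42.5%. S100a16 had 3 matches in this window and 2 in the window of its other start, Anxa8 had 2, and S100a6, whose RNA also rose, had none. RefSeq windows were found for 27 of the 37 members. Of their 34 windows 24 (70.6%) held CACCC on either strand, against 52% of 32851 windows of all genes. The members that rose by at least 1 on the log2 scale did not stand out among the members: 9 of 13 windows (69.2%) held the motif, against 15 of 21 (71.4%) for the others. A match describes letters in the window and is not evidence of binding.

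Before the changes, the levels in control cells are given per length, as TMM-scaled CPM per kb of annotated exon, since only that scale compares genes. The ubiquitous calmodulins stood highest, Calm2 at 337 ± 5.77 and Calm3 at 238 ± 9.22 CPM per kb (SD, n = 4). Both genes encode the same protein. Anxa5, which binds exposed phosphatidylserine, followed at 63 ± 6.62, and S100a1 at 33.2 ± 1.44. Anxa6 (23.7 ± 2.15), S100a10 (23.7 ± 3.65), Anxa4 (23.6 ± 1.69) and S100a11 (18.4 ± 5.02 CPM per kb) did not differ in this order beyond their spread. Anxa2 was at 13.2 ± 0.904, S100a13 at 10.1 ± 1.46 and Anxa7 at 4.76 ± 0.163 CPM per kb, and Calml4, S100z, Anxa13, Anxa11 and Anxa9 lay between 0.863 and 3.41. The other 9 tested members were below 0.25 CPM per kb, with Calm4, Calm5 and Calml3 at 0 counts.

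With Klf4 the order below the calmodulins changed. S100a13 reached 30 ± 3.36, Anxa8 29.8 ± 6.81, S100a14 25.3 ± 3.95 and S100a16 21.4 ± 5.57 CPM per kb (SD, n = 4), close to Anxa6 (27.1 ± 2.48) and Anxa4 (23.8 ± 1.1), genes already present in control cells. The largest gain per length was that of Anxa8, 29.8 CPM per kb.

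**Figure D1:**
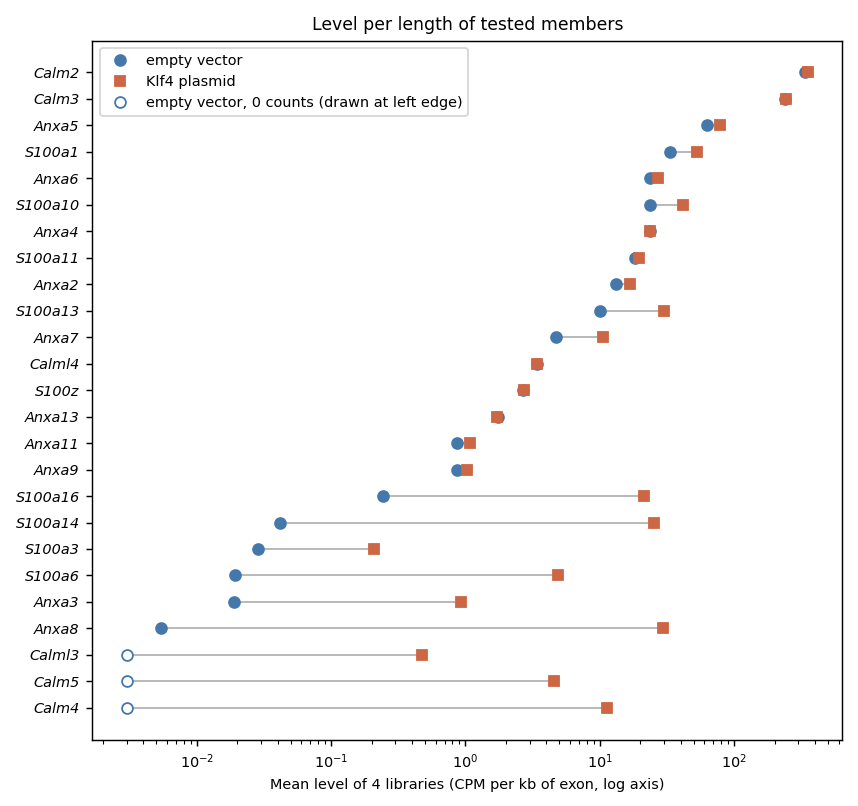
Mean level of tested members in empty vector (circles) and Klf4 plasmid (squares) libraries, in CPM per kb of exon on a log axis, ordered by control level; open circles at the left edge had 0 control counts. Calm2 and Calm3 are at the top in both groups, and the long lines belong to members below 0.25 CPM per kb in control.

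Among the calmodulins, the ubiquitous genes moved little and the epithelial ones appeared from no counts. Calm2 was at 497, 498, 500 and 481 CPM in control replicates 1 to 4 and 530, 510, 532 and 520 CPM with Klf4. Its groups did not overlap, but the log2 fold change was only 0.08 (SE 0.0256, adjusted p 0.0137). The call for Calm2 was lost without control replicate 1, 2 or 4 and without Klf4-transfected replicate 1 or 3, with adjusted p values of 0.0567 to 0.122, and without the batch term (0.0928) and in batch 1 alone (0.229). Calm3 was at 554, 561, 601 and 589 CPM in control and 556, 573, 607 and 626 CPM with Klf4, so that the groups overlapped (log2 fold change 0.04, SE 0.0247, adjusted p 0.29). With factors from abundant genes Calm3 passed the threshold (0.07, adjusted p 0.0299).

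Calm4 and Calm5, calmodulin-like genes known from epidermis, and Calml3, a calmodulin-like gene of epithelial cells, had 0 counts in all 4 control libraries. Calm4 rose to 466, 350, 624 and 690 counts in Klf4-transfected replicates 1 to 4, or 9.02, 7.73, 11.9 and 13.1 CPM. Calm5 rose to 115, 114, 164 and 153 counts (2.23, 2.52, 3.12 and 2.9 CPM). Calml3 rose to 29, 18, 52 and 39 counts (0.561, 0.398, 0.989 and 0.74 CPM). Against a floor of 3 counts per control library these were at least 168-fold higher for Calm4, at least 43.3-fold for Calm5 and at least 10.8-fold for Calml3, with edgeR adjusted p values of 6.52e-17, 1.36e-12 and 6.53e-08. These 3 genes lie within 51.9 kb on chromosome 13 (3802896 to 3854761, GRCm38) with no other protein-coding gene between them. Calm4 and Calm5 shared 4.72% and 7.26% of their 50-base words with each other. Only exact matches were counted, and the share of reads that could be confused between them was not tested. Per length Calm4 stood at 11.4 ± 2.7 CPM per kb with Klf4, beside 357 ± 7.14 for Calm2 (SD, n = 4). Calml4 did not pass the threshold, at 11.4 to 13.3 CPM in control and 11.6 to 13.5 CPM with Klf4 (log2 fold change 0.00, SE 0.0617, adjusted p 0.965).

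**Figure D2:**
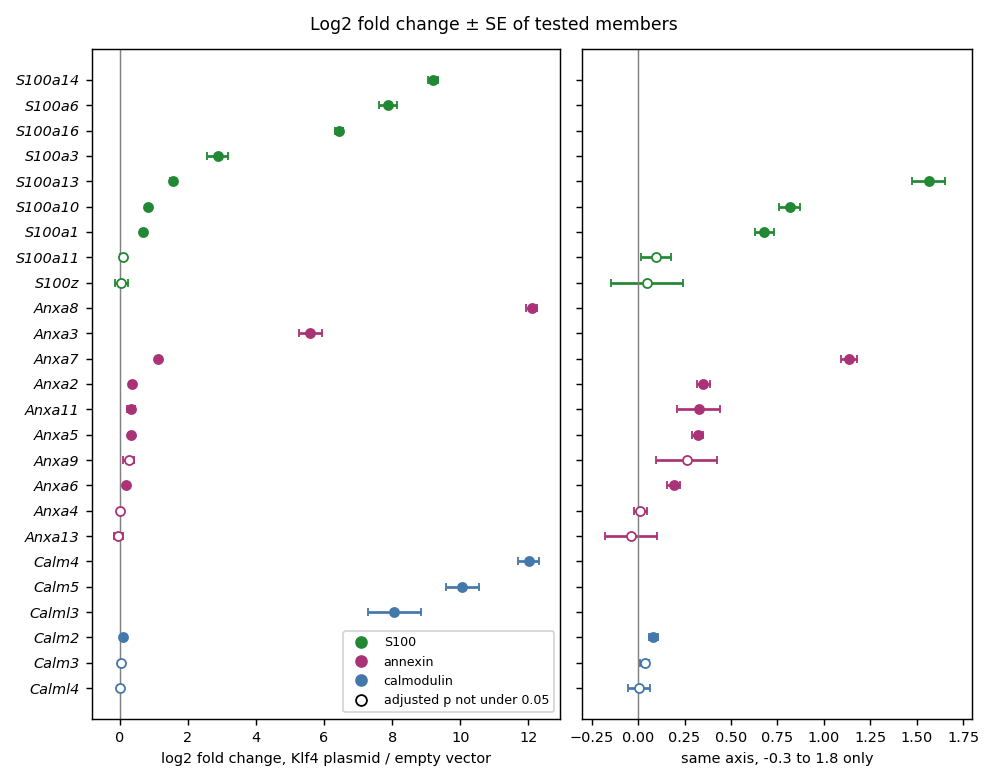
Log2 fold change (Klf4 plasmid over empty vector) with its SE for tested members by family, over the full range on the left and enlarged near 0 on the right; open points did not pass an adjusted p under 0.05. The filled points all lie above 0, and 11 of them at 1 or more; for Calm4, Calm5 and Calml3, with 0 control counts, the plotted value depends on edgeR's prior count and is no measured fold.

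Of the 12 annexin genes, 7 were higher, 3 did not pass the threshold and 2 were not tested, beside 21.1% of all tested genes higher. Among the 7, Anxa8 and Anxa3 passed the filter only through their Klf4-transfected libraries and so had to differ. This count is thus no like comparison with that share. Anxa8, an annexin known from stratified epithelia, showed the largest change. It had 0, 0, 2 and 0 counts in control replicates 1 to 4 and 2430, 1961, 3400 and 3653 counts (47, 43.3, 64.7 and 69.3 CPM) in Klf4-transfected replicates 1 to 4. On 2 control counts in all, the ratio was 5470 with an exact 95% counting interval of 1510 to 45200 (adjusted p 6.82e-24). Both control counts were in control replicate 3, and without it Anxa8 stood at 0 in control. Per length, Anxa8 made up 0 to 0.0162% of the annexin total in control and 12.6% to 18.7% in Klf4-transfected libraries (CPM per kb). Anxa3, an annexin of myeloid and epithelial cells, had 10, 1, 1 and 1 counts in control and 166, 156, 184 and 177 counts in Klf4-transfected libraries, a ratio of 50.2 (95% counting interval 29.2 to 94.8, adjusted p 2.61e-12). Control replicate 1 held 10 of the 13 control counts of Anxa3: the fitted log2 fold change was 5.60, and 7.19 without that library. It was 4.82 in batch 1 alone and 7.23 in batch 2 alone.

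Anxa7, also called synexin, which promotes membrane fusion, was well expressed and rose further. It was at 27.8, 27.8, 28.5 and 29.9 CPM in control and 58.4, 56.2, 68.4 and 68 CPM with Klf4. The groups were far apart relative to their spread, with a log2 fold change of 1.14 (SE 0.0421, adjusted p 7.9e-16). The abundant annexins rose less. Anxa5 was at 123, 121, 105 and 99.1 CPM in control and 151, 148, 131 and 129 CPM with Klf4, lower in batch 2 in both groups (log2 fold change 0.32, SE 0.0298, adjusted p 8.84e-09). Anxa2, which binds S100a10 at membranes, was at 45.7, 47.5, 53.1 and 51.2 CPM in control and 62.6, 58.3, 66 and 64.8 CPM with Klf4, without overlap (0.35, SE 0.0362, adjusted p 4.73e-08). Anxa6 was at 66, 63.5, 77.8 and 70.5 CPM in control and 73.8, 72.8, 83.3 and 87.7 CPM with Klf4. Its groups overlapped across batches but not within them (0.19, SE 0.0355, adjusted p 0.000157), and without the batch term the adjusted p was 0.0871.

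Anxa4 was among the most abundant annexins and did not pass the threshold, at 100, 106, 117 and 115 CPM in control and 112, 103, 114 and 114 CPM with Klf4 (log2 fold change 0.01, SE 0.0334, adjusted p 0.813). Anxa9 (0.26, SE 0.164, adjusted p 0.235) and Anxa13 (-0.04, SE 0.139, adjusted p 0.87) did not pass it either, at 1.22 to 2.28 and 1.83 to 2.83 CPM over all libraries. Anxa11 was the weakest call of the family, at 2.8 to 4.7 CPM in control and 4.3 to 4.72 CPM with Klf4, with overlap (0.33, SE 0.117, adjusted p 0.0326). Of its 50-base words 16.2% also occurred in other annotated genes, and 113 of its exonic bases overlap Anxa11os on the opposite strand, whose reads cannot be told apart without a stated strand setting. With the replicate number as a block the adjusted p of Anxa11 was 0.0526. The call was also lost in DESeq2, without the batch term, in batch 1 alone, without control replicate 1, 3 or 4 and without Klf4-transfected replicate 1, 3 or 4, with adjusted p values of 0.0516 to 0.732 over these fits. The annexins summed to 377.2 ± 7.92 CPM in control and 523.9 ± 23.9 CPM with Klf4 (SD, n = 4), 1.39 times the control sum.

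**Figure D3:**
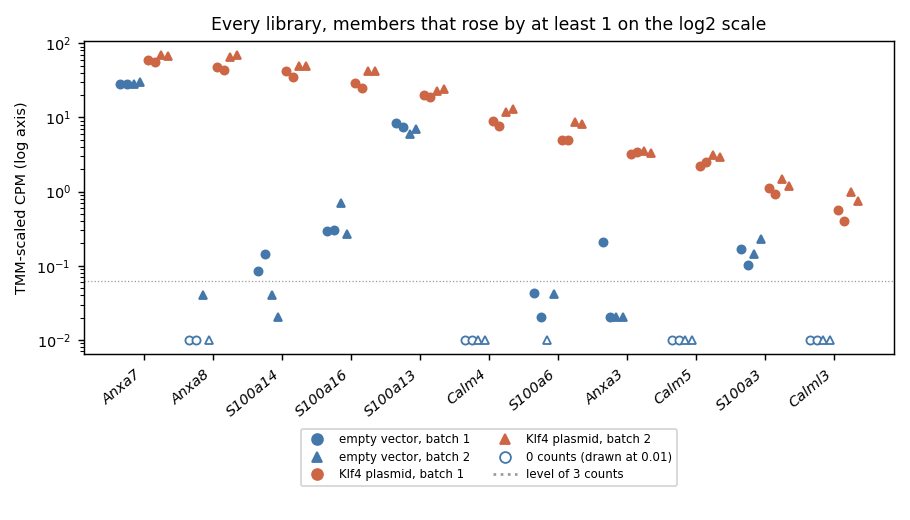
TMM-scaled CPM in every library on a log axis for the 11 members that rose by at least 1 on the log2 scale, empty vector in blue and Klf4 plasmid in orange, with circles for batch 1 and triangles for batch 2; open symbols at 0.01 are libraries with 0 counts and the dotted line marks 3 counts (0.0621 CPM). No Klf4 plasmid point of a gene lies at or below an empty vector point of that gene. The genes were picked by this same comparison, and 8 of them passed the filter only through Klf4 plasmid libraries. The separation is therefore no further result.

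Of the 18 S100 genes, 7 were higher, 2 did not pass the threshold and 9 were not tested, where 21.1% of all tested genes were higher. S100a14, S100a3 and S100a6 passed the filter only through their Klf4-transfected libraries and so had to differ. The S100 count therefore cannot be read against that share. S100a14, a member of epithelial cells, had 4, 7, 2 and 1 counts in control and 2163, 1574, 2561 and 2599 counts (41.9, 34.8, 48.7 and 49.3 CPM) in Klf4-transfected libraries, a ratio of 607 (95% counting interval 362 to 1110, adjusted p 3.7e-22). S100a16 was at 0.297, 0.308, 0.71 and 0.269 CPM in control and 29.1, 24.8, 41.8 and 42.7 CPM with Klf4, with a log2 fold change of 6.44 (SE 0.12, adjusted p 4.14e-21). S100a6, also called calcyclin, had 2, 1, 0 and 2 counts in control and 255, 225, 454 and 427 counts in Klf4-transfected libraries (4.93, 4.97, 8.63 and 8.1 CPM). Its ratio was 260 on 5 control counts, with a 95% counting interval of 111 to 803 (adjusted p 5.39e-17). Per length, S100a14, S100a16 and S100a6 together made up 0.265% to 0.572% of the S100 total in control libraries and 21.4% to 28.9% in Klf4-transfected libraries (CPM per kb). The fitted log2 fold change of S100a14 was 8.35 in batch 1 alone and 10.54 in batch 2 alone, and 9.79 in place of 9.19 without control replicate 2, which held 7 of its 14 control counts. That of S100a6 was 7.19 in batch 1 alone and 8.52 in batch 2 alone. For S100a14, S100a16 and S100a6, and for Anxa8 and Calm4, both batch 2 libraries of the Klf4-transfected group lay above both batch 1 libraries. Of the other members that rose by at least 1 on the log2 scale, S100a3, S100a13, Anxa7, Calm5 and Calml3 had this order too. Anxa3 did not.

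S100a3, known from hair cuticle, stayed low while rising, from 0.17, 0.103, 0.142 and 0.228 CPM in control to 1.12, 0.928, 1.5 and 1.19 CPM with Klf4 (log2 fold change 2.87, SE 0.295, adjusted p 4.43e-08). S100a13, a copper-binding S100 that takes part in the release of FGF1, was at 8.5, 7.48, 5.98 and 7.04 CPM in control and 20.1, 18.9, 22.7 and 24.2 CPM with Klf4 (1.56, SE 0.0892, adjusted p 1.74e-12). S100a1, best known from heart muscle, was at 22.5, 23.6, 24.2 and 21.9 CPM in control and 33.4, 35.5, 38.2 and 40.7 CPM with Klf4 (0.68, SE 0.051, adjusted p 2.31e-10). None of these 3 genes had overlapping groups. S100a1 and S100a13 are divergent neighbours whose annotated starts lie 43 bases apart. Most of the S100a13 window printed above, with both marked sites, therefore lies within S100a1 as annotated. The rest is the stretch between the starts. S100a10, the light chain of the annexin A2 complex, which does not itself bind calcium, was at 33.3, 31.7, 24.4 and 25.5 CPM in control and 52.5, 49, 50.2 and 49.4 CPM with Klf4 (0.82, SE 0.0557, adjusted p 4.26e-11). It rose further than its partner Anxa2, although the difference between these changes was not tested.

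S100a11 and S100z did not pass the threshold. S100a11 was at 7.17 to 12.8 CPM in control and 8.67 to 11.7 CPM with Klf4 (log2 fold change 0.10, SE 0.0812, adjusted p 0.396), and 41.1% of its 50-base words also occurred in transcripts of other annotated genes. S100z was at 0.69 to 1.58 and 0.758 to 1.39 CPM (0.05, SE 0.194, adjusted p 0.878), with the batch 1 libraries above the batch 2 libraries in both groups. The S100 genes summed to 70.33 ± 7.88 CPM in control and 206.2 ± 21 CPM with Klf4 (SD, n = 4), 2.93 times the control sum.

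Most S100 genes lie in a cluster on chromosome 3, from S100a1 to S100a9 (90511034 to 90695721, GRCm38, 184.7 kb), where 12 of 13 protein-coding genes are members. In chromosome order the cluster opens with S100a1, S100a13, S100a14, S100a16 and S100a3, all higher. S100a2, S100a4 and S100a5 were below the filter, S100a6 was higher, and S100a7a, S100a8 and S100a9 were below the filter. Raised genes and genes near 0 thus lay side by side: S100a5 had 3 counts in 1 of 8 libraries, and S100a6, which starts 4.4 kb further on, had 225 to 454 counts in Klf4-transfected libraries. Snapin and Chtop, the nearest protein-coding genes before the cluster, did not pass the threshold (log2 fold change 0.00, SE 0.0452, and -0.01, SE 0.0282). S100a11 and S100a10 lie apart from the cluster, side by side at 93520488 to 93564643 on the same chromosome. Of this pair S100a10 passed the threshold and S100a11 did not.

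**Figure D4:**
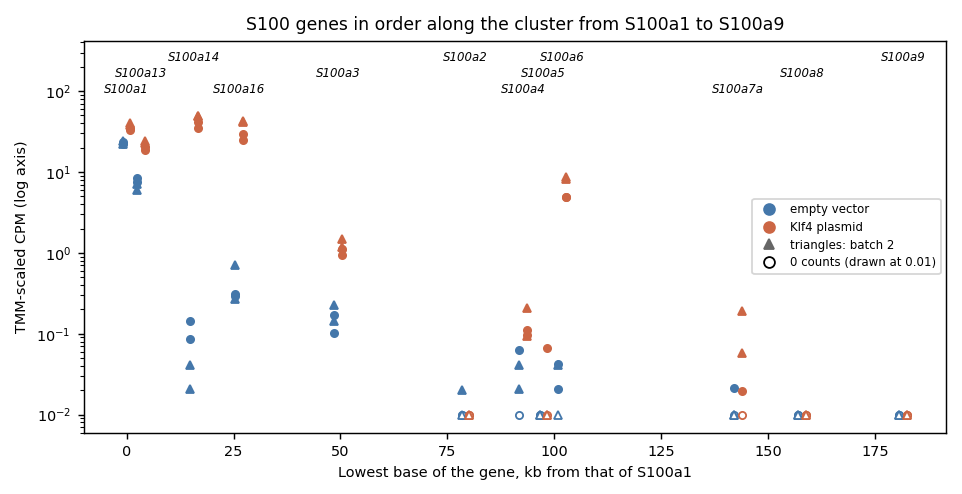
TMM-scaled CPM in every library (log axis) for the 12 S100 genes from S100a1 to S100a9, placed by the lowest base of each gene in kb from that of S100a1, with empty vector in blue, Klf4 plasmid in orange, triangles for batch 2 and open symbols at 0.01 for 0 counts. The orange and blue points separate widely at S100a14, S100a16 and S100a6, and S100a8 and S100a9 have open symbols alone.

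The 11 members below the filter account for the remainder. S100a8 and S100a9, the subunits of calprotectin, an abundant protein of neutrophils and of stressed epidermis, had 0 counts in all 8 libraries, where 3 counts in a control library correspond to 0.0621 CPM. Anxa1, a target of glucocorticoids, had 1 count in 1 Klf4-transfected library. S100a4, a member of fibroblasts and migrating cells, had 3, 0, 2 and 1 counts in control and 5, 5, 11 and 5 counts in Klf4-transfected libraries. These groups did not overlap (two-sided exact permutation p = 0.0286, the smallest that 4 against 4 can give), but in the fit without a filter the adjusted p was 0.123, and 47.4% of its 50-base words occurred in Gm42674. S100g, the vitamin D-dependent calbindin of intestine, had 0 to 3 counts in control and 2 to 9 in Klf4-transfected libraries (exact permutation p = 0.0857, adjusted p 0.298 without a filter). Anxa10 had 3 to 20 and 1 to 12 counts (exact permutation p = 0.371, adjusted p 0.381 without a filter). S100b had at most 5 counts in a library, S100a7a at most 10, S100a5 at most 3, the pseudogene S100a11-ps at most 2 and S100a2 at most 1.

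The changes were compared between the batches. Groups did not overlap for 17 tested members, each with the Klf4-transfected libraries higher, where 17.2% of all tested genes were separated in that direction. Among these 17 are the 8 members that passed the filter only through their Klf4-transfected libraries and so had to differ. The same 8 are among the members counted as higher in each batch below, so these counts cannot be read against the shares of all genes. In batch 1 alone (2 against 2) 17 of 27 testable members were higher, where 15.9% of all genes were. In batch 2 alone 19 of 26 were higher, where 20.1% of all genes were. No member was lower in either batch. The effect differed between batches for 2 of the 26 members by the edgeR interaction test, S100a10 (0.64 in batch 1 and 1.01 in batch 2, adjusted p 0.0281) and S100a13 (1.28 and 1.86, adjusted p 0.0318), where 0.766% of all genes passed that test. Both were larger in batch 2, and in both the control libraries of batch 2 were also lower on average. A further test of the interaction in DESeq2 called 2 members.

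**Figure D5:**
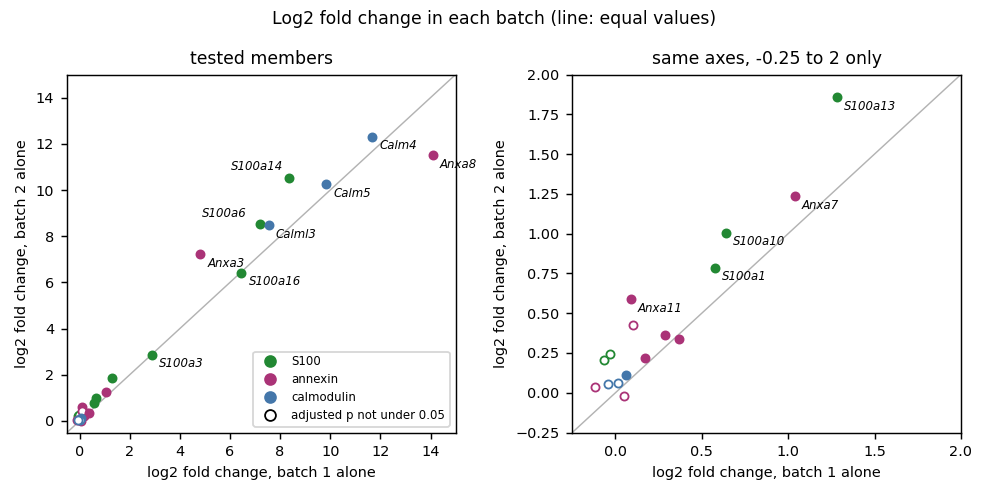
Log2 fold change of tested members in batch 2 alone against batch 1 alone, over the full range on the left and enlarged up to 2 on the right, with the line of equal values; open points did not pass the threshold in the fit of both batches. S100a13 and S100a10 lie above the line at 1.28 and 1.86, and at 0.64 and 1.01.

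Of the 26 tested members, 11 rose by at least 1 on the log2 scale, where 8.5% of all tested genes did so: S100a3, S100a6, S100a13, S100a14, S100a16, Anxa3, Anxa7, Anxa8, Calm4, Calm5 and Calml3. Of these 11, all but S100a13, S100a16 and Anxa7 passed the filter through their Klf4-transfected libraries alone. Members that MIN6 cells expressed at 10 CPM per kb or more in control had log2 fold changes from 0.01 for Anxa4 to 1.56 for S100a13.

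The proteins that these families act on were examined through 4 lists. Of 28 partners and receptors of S100 proteins and annexins, 22 were tested, 12 were higher and 3 lower (median log2 fold change 0.19). The scaffold Ahnak, a partner of the S100a10 and annexin A2 complex, went from 2.04 ± 0.281 CPM in control to 76 ± 17.9 CPM with Klf4 (SD, n = 4), a log2 difference of 5.21 (SE 0.0979, adjusted p 4.4e-21). Its homologue Ahnak2 went from 1.16 ± 0.207 to 7.64 ± 0.949 CPM (2.71, SE 0.13, adjusted p 7.75e-14), and the intermediate filament gene Vim from 0.114 ± 0.0282 to 2.57 ± 0.398 CPM (4.47, SE 0.245, adjusted p 8.51e-13). Vim is also a mesenchymal marker. Of the 5 fibroblast markers summed above, Dcn, Col1a1 and Pdgfra were also higher, and Lum had 0 counts. Col1a2 was at 1.34 and 1.42 CPM on average and did not pass the threshold (adjusted p 0.734 in edgeR). The relation of these markers to Vim was not tested.

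Of 46 enzymes and adaptors that bind calmodulin, 45 were tested, 15 were higher and 8 lower (median 0.07), with calls in both directions. The 3 largest changes were in Itpka, a kinase of inositol trisphosphate (0.917 ± 0.163 to 18.1 ± 4.27 CPM, log2 fold change 4.28), the adenylyl cyclase gene Adcy3 (1.51 ± 0.288 to 13.8 ± 3.17 CPM, 3.17) and the kinase gene Dapk2 (1.01 ± 0.599 to 4.78 ± 0.43 CPM, 2.29; SD, n = 4). Without the batch term 10 genes of this list passed the threshold in place of 23. Of 37 EF-hand proteins outside the families, 33 were tested, 20 were higher and 4 lower (median 0.17). Chp2, a cofactor of sodium-proton exchangers, went from 0.0776 ± 0.0489 to 5.2 ± 0.644 CPM (log2 fold change 6.03), Hpcal4 from 0.0936 ± 0.0652 to 0.416 ± 0.197 CPM (2.14) and the calpain gene Capn1 from 8.16 ± 1.62 to 31.8 ± 3.66 CPM (1.97; SD, n = 4). Of 7 fused S100-type genes of the epidermal differentiation complex, 1 was tested, Tchh, which rose from 0.742 ± 0.329 to 1.4 ± 0.301 CPM (0.96, SE 0.211, adjusted p 0.000935), with overlapping groups. Below the filter, and named after their values were seen, Rptn had 0 counts over the control libraries and 75 over the Klf4-transfected ones, and Tchhl1 had 1 and 70, in both cases without overlap. Flg, Hrnr and Crnn had 0 control counts and 13, 7 and 3 with Klf4, with overlap, and Flg2 had 0 counts throughout. The shares called, 68.2%, 51.1% and 72.7% in the 3 larger lists, stand beside 36.6% of all tested genes (21.1% higher and 15.5% lower). The lists were chosen with earlier results of these data known, so their shares are no independent test. Some listed genes, such as Chp2 and Vim with at most 7 counts in a control library, passed the filter only through Klf4-transfected libraries.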

How the data were processed

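RNA of 8 MIN6 libraries was compared. The deposited values are whole-number read counts per gene, not normalised or pooled. Reads were trimmed with cutadapt, per the name of the deposited table, and the submitters' processing notes name FastQC, STAR, featureCounts, edgeR and the build mm10. Strand setting and annotation are not given in the sources used here. All 55536 identifiers and symbols matched GENCODE M21 (GRCm38), the source of coordinates and exon lengths. The members and gene lists were chosen with earlier results of these data known.

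Counts were fitted in edgeR 4.0.16 (R 4.3.3) with TMM factors (0.996 to 1.01) and terms for batch and plasmid by the quasi-likelihood test. filterByExpr (minimum count 10) kept 18266 genes. P-values were Benjamini-Hochberg adjusted over these. SEs are the log2 fold change over the root of its F statistic. CPM values were computed from the deposited counts. Counting intervals (95%, exact binomial) cover counting error only. Shared words were 50-base stretches found in annotated transcripts of another gene, on either strand.

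Alternatives were no batch term, other scalings, DESeq2 1.42.0, limma-voom (limma 3.58.1), other filters, an adjusted p under 0.01, each batch alone and each library left out. The replicate number as a block was also fitted: deviations of same-numbered libraries correlated at 0.459 to 0.614 over 10485 genes. Once batch means were removed, they correlated at -0.0463 in batch 1 and 0.0783 in batch 2, with 2 libraries per group in each. Pairing of same-numbered libraries within a batch was not tested further. The labels do not say that replicates were separate cultures, so p-values measure the spread between these libraries, which may be technical. Named in full are Calm2, Calm3, the 5 members of highest mean CPM and members that changed by at least 1 on the log2 scale, and further members follow. Of each list, the 3 largest changes past the threshold are named. 1 calmodulin gene, counted among the members, is not reported here by name or drawn in the figures. The analysis was tested on simulated data. Figures were drawn with Python 3.11.15.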

Additional observations from a re-analysis of the deposited data

Results flagged for a closer look

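A library far from the other 3 of its group was looked for in 52 sets of member values, and 5 were found. A nominal rate of 1 in 20 gives 2.6. The sets share libraries and batches, and some hold counts near 0, so the true rate without outliers is not known. Control replicate 3 stood apart for S100a16 at 0.71 CPM (others 0.269 to 0.308), for Anxa8 at 0.0406 CPM (2 counts, others 0) and for Anxa9 at 1.22 CPM (others 1.93 to 2.07). Control replicate 1 stood apart for Anxa3 at 0.212 CPM (others 0.0203 to 0.0207) and control replicate 4 for Calm2 at 481 CPM (others 497 to 500).

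Between batches, the log2 fold change of S100a13 differed by 0.559 on the log2 scale (batch 2 minus batch 1, edgeR interaction test, adjusted p 0.0318), and that of S100a10 by 0.3519 (adjusted p 0.0281).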

How the results depend on the processing

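The count of members called stayed within 16 to 20 over all alternatives (19 as reported), with none lower in any of them. It was 16 without the batch term, 18 with the replicate block and 17 to 19 with a library left out. The block lost the call of Anxa11 and changed no other member's call. Over all genes 4116 were called without the batch term, against 6684, and 6284 with the replicate block. The calmodulin-binding list fell to 10 genes without the batch term and 13 in batch 1 alone, and the partner list to 9 in batch 1 alone, from 23 and 15. The fused S100-type list gave 3 without a filter and 2 in batch 2 alone, and 1 to 3 with a library left out (3 without any one control library, 2 without Klf4-transfected replicate 1 or 4), where the looser filter admits more of its genes. Members near 0 changed sign without passing the threshold. In batch 1 alone S100z was at -0.0648, S100a11 at -0.0292 and Calml4 at -0.0408, in batch 2 alone Anxa13 was at 0.0373 and Anxa4 at -0.0179, and without a filter Calml4 was at -0.0055. With a library left out S100z ran from -0.00916 to 0.132, Anxa13 from -0.11 to 0.0271, Anxa4 from -0.0294 to 0.0205 and Calml4 from -0.0355 to 0.0239. The cause was not tested. The filtered fit did not test the 11 members under the filter, where low expression and limited depth cannot be told apart.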

Other observations

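Protein-coding neighbours of the members with the largest increases were read from the same fit. Beyond Calm5, Net1, a guanine nucleotide exchange factor gene, rose by 0.41 on the log2 scale (SE 0.0389, adjusted p 1.14e-08 in edgeR), and on the other side Asb13 was at 0.03 (SE 0.0342, adjusted p 0.606). Near Anxa8, A630023A22Rik, which overlaps it on the other strand, was at 0.09 (SE 0.222, adjusted p 0.806), and Gprin2 was at 4.18 (SE 0.24, adjusted p 1.87e-12), with 3 to 18 counts in control and 134 to 312 in Klf4-transfected libraries. Pglyrp4, the first gene beyond S100a9, had 0 to 4 counts in control and 2 to 14 in Klf4-transfected libraries and was not tested. Antxrl and Npy4r lie nearer to Anxa8 than Gprin2 and were not tested. Antxrl had 0 counts in control and 3 to 15 in Klf4-transfected libraries, and Npy4r 0 to 3 and 1 to 10. Beyond Asb13, Fam208b was at -0.07 (SE 0.0346, adjusted p 0.133), and beyond Net1, Tubal3 had 0 to 2 counts in both groups. These genes were chosen for their position after the members' values were seen.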
